A study of Mus musculus with 73 samples.

Results

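Control mouse embryos at the blastocyst stage were compared with control embryos at the 8-cell stage. Of the 73 samples in the series, 5 RNA-seq libraries entered the comparison: 2 labelled EGFP blastocyst and 3 labelled EGFP 8-cell. All 5 came from embryos of the hybrid strain C57BL/6 / C3H, cultured in KSOM, a potassium-enriched simplex medium for preimplantation embryos. EGFP, enhanced green fluorescent protein, is the control condition for p150DN in this series, so both stages carry EGFP and no library here is from an embryo without it. Total RNA in lysates went straight into a SMART-seq stranded kit. The deposited table gives FPKM, fragments counted per length of transcript and per depth of the library, so a value is a share of the library corrected for gene length and not an amount per embryo or per cell. Of 25220 genes in the table, 12199 had at least 1 FPKM in 2 or more of the 5 libraries and were tested.

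Between these stages the mouse embryo compacts, its outer cells polarise and form the trophectoderm, and its inner cells form the inner cell mass, which later separates into epiblast and primitive endoderm. The trophectoderm is an epithelium that pumps fluid into the blastocoel and later forms placental tissue. Outer cells keep the Hippo kinases inactive, so that YAP1 and TEAD4 can switch on Cdx2 and Gata3. Over the same days, transcripts stored in the oocyte and transcripts of the first burst of embryonic transcription are lost, and the embryo moves from using mainly pyruvate and lactate to taking up glucose.

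The libraries held 19337577 to 22488477 counted fragments each, recovered from the steps between low FPKM values, so that 1 FPKM in a 1 kb gene stood for 19.3 to 22.5 fragments. Libraries of one stage correlated at r = 0.976 to 0.985 on log2(FPKM + 1) across genes, and no pair was alike within counting noise. Among all genes tested, 79.6% had values that did not overlap between the stages, 49.3% with both blastocyst libraries above and 30.3% with both below. The labels do not say whether the libraries of a stage came from separate pools of embryos, so the p-values rest on a spread between these 5 libraries that may be only technical. Among stage markers, those of the trophectoderm and inner cell mass stood where the labels put them. Krt8, Krt18, Cdx2, Gata3, Nanog and Sox2 were higher in both blastocyst libraries than in all 3 8-cell libraries. The 2-cell genes Zscan4c and Zscan4d were at most 1.22 FPKM in every library. The 2-cell marker Zfp352 held 35, 207 and 87 fragments in the 8-cell libraries and 1 and 2 in the blastocyst libraries. Other 2-cell genes, such as Tdpoz4 and Trim43b, were abundant in the 8-cell libraries (below). Markers of blood and immune cells (8 genes) summed to at most 3.02 FPKM in any library, and fibroblast markers (8 genes) to at most 1.08 FPKM, with no member passing the filter. Of 12 cumulus and granulosa cell markers only Amhr2 passed the filter, at 18.2, 23.7 and 17.5 FPKM in the 8-cell libraries and 1.56 and 1.3 FPKM in the blastocyst libraries, and Fshr, Foxl2, Lhcgr and Cyp19a1 did not. Of 9 sperm markers only Odf2, which also codes for a centrosome protein, passed, at 8, 8.69 and 7.96 FPKM in the 8-cell libraries and 29.97 and 32.6 FPKM in the blastocyst libraries. The cumulus list summed to 18.4 to 24.3 FPKM in the 8-cell libraries and 2.34 to 2.66 in the blastocyst libraries, and the sperm list to 8.41 to 9.14 and 30.8 to 33.6. The part of such cells in the results was not tested. In whole embryos, fewer cells of a type and less RNA per cell cannot be told apart.

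At an adjusted p below 0.05 (limma on log2(FPKM + 1), Benjamini-Hochberg over the 12199 genes), 5198 genes were higher in blastocysts (42.6%) and 3038 were lower (24.9%), together 67.5% of the genes tested. Leaving out blastocyst library 1 gave 3305 higher and 2305 lower of 11143 genes, and leaving out library 2 gave 3150 and 2309 of 11158, where the lone blastocyst library is assumed to vary like the others. The median gene had a log2 fold change of 0.28, and the 10th and 90th percentiles were -1.18 and 1.65. The split depended on the scaling. With median-of-ratios scaling the split was 4289 higher against 3751 lower and the median 0.09, and with quantile normalization 3997 against 3902 and 0.02. List medians below are therefore read against 0.28, and list counts against 42.6% and 24.9%. Called changes of at least 8-fold numbered 173 upward (1.42%) and 95 downward (0.779%). Because 1 FPKM was added before taking logs, the fold changes given are too small for genes near or below that level. In the lists and roles below with no member called in a direction, limma's unadjusted p below 0.05 also gave 0 members there, except 1 in the Obox list.

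**Figure D1:**
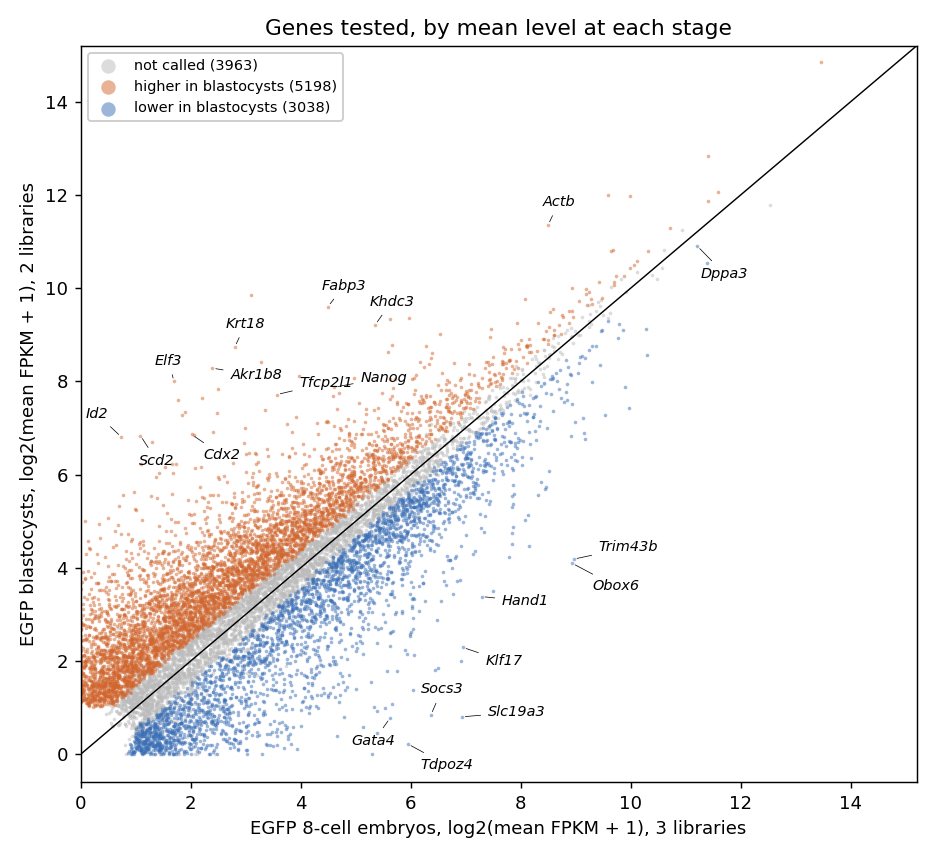
Mean level of each of the 12199 genes tested in EGFP 8-cell embryos (x axis, 3 libraries) and EGFP blastocysts (y axis, 2 libraries), both as log2(mean FPKM + 1), with the line of equal levels. Orange points are the 5198 genes called higher in blastocysts and blue points the 3038 called lower; Elf3, Id2 and Krt18 lie far above the line and Slc19a3, Tdpoz4 and Socs3 far below it.

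The 20 largest rises among named genes of at least 300 bases included 7 genes of the trophectoderm list. Elf3, an ETS-family transcription factor of epithelia, was at 1.46, 0.692 and 4.58 FPKM in the 8-cell libraries and 249 and 261 FPKM in the blastocyst libraries (log2 fold change 6.49 ± 0.45 (SE), adjusted p = 4.6e-05). Id2, an inhibitor of basic helix-loop-helix factors, was at 0.68, 0.272 and 1.06 FPKM in the 8-cell libraries and 117 and 105 FPKM in the blastocyst libraries (log2 fold change 6.10 ± 0.22 (SE), adjusted p = 1.1e-05). Both genes were low at the 8-cell stage, and 8-cell library 3 was the highest of the 3 for each. Akr1b8, an aldo-keto reductase, rose by 6.14 ± 0.50 (SE), Lrp2, the endocytic receptor megalin, by 5.85 ± 0.30 (SE), and Scd2, a stearoyl-CoA desaturase, by 5.76 ± 0.24 (SE) on the log2 scale. Sdc4, a cell-surface heparan sulfate proteoglycan, Bmyc, a relative of Myc, and Nynrin rose by 5.38, 5.14 and 4.82. The protease inhibitor gene Serpinb6c, the p53-binding protein gene Trp53bp2 and the lipid-transfer gene Stard10 rose by 4.71, 4.65 and 4.64. Ass1, argininosuccinate synthase, stood at 1.83, 2.36 and 3.61 FPKM in the 8-cell libraries and 151 and 157 FPKM in the blastocyst libraries (log2 fold change 5.45 ± 0.21 (SE), adjusted p = 1.4e-05). The table lists Gm5424, annotated as a transcribed pseudogene and named here after its values were seen, at 1.92, 2.48 and 3.8 FPKM in the 8-cell libraries and 158 and 165 FPKM in the blastocyst libraries, nearly the same 5 values, so reads of such near-identical copies may be shared.

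The largest falls were of a different kind. Slc19a3, a thiamine transporter, was at 143, 120.3 and 99 FPKM in the 8-cell libraries and 0.712 and 0.778 FPKM in the blastocyst libraries (log2 fold change -6.11 ± 0.17 (SE), adjusted p = 1.1e-05). Socs3, the feedback inhibitor of JAK-STAT signalling, was at 96.5, 61.4 and 87.2 FPKM in the 8-cell libraries and 0.986 and 0.604 FPKM in the blastocyst libraries (log2 fold change -5.51 ± 0.22 (SE), adjusted p = 1.4e-05). In each case the blastocyst libraries were below 1 FPKM and the 8-cell libraries above 60. Other falls included the aminopeptidase gene Anpep (-4.61), Pfkfb3, which makes the glycolytic activator fructose 2,6-bisphosphate (-4.30), the stress-response gene Nupr1 (-4.41), the collagen chaperone gene Fkbp10 (-4.24), Bex6 (-4.91), Exoc3l2 (-4.70), Tmem229b (-4.62), D7Ertd443e (-4.55) and Tbc1d9 (-3.94). The rest of the 20 were transcription factor, 2-cell, cleavage stage and oocyte genes, most of them described below.

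Trophectoderm genes had the highest median of the 40 lists with at least 5 tested members. Where 5 or fewer members of a list were called against the rest they are named, whatever the size of their change. Members named for that reason alone were chosen after their values were seen. Of 29 tested members, 23 were higher in blastocysts (79.3%, against 42.6% of all genes tested) and 3 lower (against 24.9%), with a median of 2.47 (all genes 0.28). Fewer members passed the filter and were called higher with a blastocyst library left out (below). Among transcription factors, Cdx2, the master regulator of the lineage, was at 4.21, 2.79 and 2.17 FPKM in the 8-cell libraries and 109 and 121 FPKM in the blastocyst libraries (log2 fold change 4.87 ± 0.22 (SE), adjusted p = 1.6e-05). Gata3, which acts beside Cdx2, was at 6.65, 3.44 and 3.57 FPKM in the 8-cell libraries and 147 and 172 FPKM in the blastocyst libraries (log2 fold change 4.90 ± 0.25 (SE), adjusted p = 2.2e-05). The 5 libraries thus split cleanly by stage for both genes. Eomes, needed for trophoblast stem cells, rose from 0.46 ± 0.328 to 12.1 ± 2.8 FPKM (SD, n = 3 and 2) and Tfap2a, an AP-2 factor, from 1.06 ± 1.37 to 18.7 ± 6.55 FPKM. Gata2 reached only 2.39 and 1.62 FPKM in the blastocyst libraries, and Elf5 did not pass the filter.

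Factors that act upstream of Cdx2 did not follow it. Tead4, the DNA-binding partner of YAP1, was at 151, 144 and 138 FPKM in the 8-cell libraries and 53.3 and 57.4 FPKM in the blastocyst libraries (log2 fold change -1.37 ± 0.10 (SE), adjusted p = 5.8e-05). It was thus already abundant at the 8-cell stage and lower in both blastocyst libraries. Klf5 (295, 270.2 and 357 against 360.4 and 383 FPKM) and Tfap2c (91.3, 80.7 and 94 against 92.2 and 74.2 FPKM), both factors of early trophectoderm and inner cells, did not pass the test, with 95% intervals of the log2 fold change of -0.04 to 0.60 and -0.41 to 0.22. Without 8-cell library 3, Klf5 had an adjusted p of 0.0173. Hand1, a factor of trophoblast giant cells, ran the other way from the list, at 148, 229 and 89.3 FPKM in the 8-cell libraries and 12 and 6.86 FPKM in the blastocyst libraries (log2 fold change -3.85 ± 0.39 (SE), adjusted p = 0.000179). Each 8-cell library held more than 7 times the level of either blastocyst library. Cited1, a transcriptional co-activator gene, was the other member called lower (-1.89), and Esx1 was the other one not called.

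Products of the trophectoderm were called higher in nearly every case, 13 of 14 tested members. Krt8 and Krt18, which pair to build the keratin filaments of simple epithelia, were far higher in both blastocyst libraries. Krt8 stood at 8.97, 6.98 and 10.1 FPKM in the 8-cell libraries and 333 and 350.2 FPKM in the blastocyst libraries. Krt18 stood at 6.79, 6.78 and 4.36 FPKM in the 8-cell libraries and 418 and 435 FPKM in the blastocyst libraries. Their log2 fold changes were 5.16 ± 0.16 (SE) and 5.96 ± 0.18 (SE), with adjusted p values of 1.1e-05 and 1.1e-05 (limma). A Krt8 pseudogene is annotated, so reads of the copies may be shared. Krt7 rose from 0.373 ± 0.131 to 11.1 ± 4.45 FPKM and Krt19 reached 1.57 and 4.09 FPKM. Ptges, a prostaglandin E synthase, rose from 0.263 ± 0.191 to 29.7 ± 5.69 FPKM, Plet1 from 1.96 ± 0.86 to 35.3 ± 7.4 FPKM, and Dppa1 from 0.125 ± 0.117 to 20.2 ± 0.924 FPKM (SD, n = 3 and 2). The counts that follow cover the whole trophectoderm list and not only these 14 products. With blastocyst library 1 or 2 left out, 12 and 13 members were called higher among the 21 that still passed the filter, since a gene seen only in blastocysts then has 1 library above it.

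Krt8 and Krt18 are neighbours on chromosome 15, so the 250 bases before their starts are shown with those of Cdx2, the leading lineage factor, and of Klf17, a factor that fell (below). The sequences are from RefSeq, build GRCm38.p6, 5′ to 3′ on the gene's strand. The windows are chr15:102004343-102004592 (minus strand), chr15:102027966-102028215 (plus strand), chr5:147307250-147307499 (minus strand) and chr4:117765667-117765916 (minus strand). Capitals mark matches, on either strand, to a TEAD motif (CATTCC), a TFAP2 motif (GCCNNNGGC), a GATA motif (AGATAA) and an SP and KLF motif (CCGCCC).
Krt8: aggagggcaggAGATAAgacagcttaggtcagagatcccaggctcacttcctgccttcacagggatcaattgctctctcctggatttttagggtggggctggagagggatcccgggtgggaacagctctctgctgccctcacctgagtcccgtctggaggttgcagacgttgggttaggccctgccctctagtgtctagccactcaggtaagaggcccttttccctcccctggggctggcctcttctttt
Krt18: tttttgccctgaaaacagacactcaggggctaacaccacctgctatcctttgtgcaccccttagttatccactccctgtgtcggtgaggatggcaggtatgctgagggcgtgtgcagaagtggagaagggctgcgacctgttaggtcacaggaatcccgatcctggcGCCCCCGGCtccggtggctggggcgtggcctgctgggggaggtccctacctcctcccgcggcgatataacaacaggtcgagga
Cdx2: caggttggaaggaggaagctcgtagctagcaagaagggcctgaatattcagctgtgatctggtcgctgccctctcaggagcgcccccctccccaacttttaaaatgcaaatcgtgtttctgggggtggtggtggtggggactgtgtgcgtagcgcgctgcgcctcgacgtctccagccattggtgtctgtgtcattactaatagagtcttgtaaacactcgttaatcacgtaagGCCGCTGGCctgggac
Klf17: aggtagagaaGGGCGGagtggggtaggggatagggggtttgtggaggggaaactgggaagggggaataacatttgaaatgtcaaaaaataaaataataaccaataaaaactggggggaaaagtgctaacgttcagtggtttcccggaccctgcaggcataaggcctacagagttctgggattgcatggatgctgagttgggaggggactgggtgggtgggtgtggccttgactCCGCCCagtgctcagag
The Krt8 window held 1 GATA match, the Krt18 and Cdx2 windows 1 TFAP2 match each, and the Klf17 window 2 SP and KLF matches. No TEAD match lay in these 4 windows, and no match overlapped another. Of 11829 such windows of tested genes, 10.7% held the TEAD letters, 20.4% the TFAP2 letters, 6.04% the GATA letters and 57.4% the SP and KLF letters. Across promoters of 300 bases, 50 of them after the start, genes called at least 8-fold higher held the TEAD letters in 13.3% and those called at least 8-fold lower in 18.4%, against 12.2% of all. Promoters with an observed-to-expected CpG ratio of at least 0.6 made up 54% and 50.6% of those sets, against 70% of all tested promoters.

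Pluripotency genes did not move as a group. Of 30 tested members, 11 were higher and 12 lower, and the median was -0.18, below the 0.28 of all genes; without 8-cell library 2 it was 0.04. Several factors of the inner cell mass and naive state rose. Nanog, a marker of the epiblast, was at 22.5, 26.7 and 21.1 FPKM in the 8-cell libraries and 228 and 239 FPKM in the blastocyst libraries (log2 fold change 3.27 ± 0.13 (SE), adjusted p = 1.4e-05). Sox2, which marks inner cells from the morula on, was at 0.0584, 0.221 and 0.273 FPKM in the 8-cell libraries and 9.66 and 17.9 FPKM in the blastocyst libraries (log2 fold change 3.59 ± 0.26 (SE), adjusted p = 5.7e-05). Sox2 was thus nearly undetected at the 8-cell stage, whereas Nanog was already present in every 8-cell library. Tfcp2l1 rose from 10.8 ± 6.7 to 209.6 ± 12.5 FPKM, the LINE1-derived L1td1 from 3.23 ± 0.451 to 69.4 ± 26.2 FPKM and Zfp42 (REX1) from 30.8 ± 1.99 to 109.6 ± 11.6 FPKM (SD, n = 3 and 2). Pou5f1, which codes for OCT4, was at 326, 235 and 391 FPKM in the 8-cell libraries and 589 and 625 FPKM in the blastocyst libraries (log2 fold change 0.96 ± 0.20 (SE), adjusted p = 0.00467).

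Other pluripotency genes fell. Klf17 was at 117, 129 and 122 FPKM in the 8-cell libraries and 4.38 and 3.43 FPKM in the blastocyst libraries (log2 fold change -4.66 ± 0.13 (SE), adjusted p = 1.1e-05). Klf2 was at 102, 106 and 112 FPKM in the 8-cell libraries and 13.5 and 16.5 FPKM in the blastocyst libraries (log2 fold change -2.76 ± 0.12 (SE), adjusted p = 1.6e-05). Klf4 and Klf5 of the same zinc finger family did not pass the test, so the Klf5 to Klf17 ratio rose: its log2 value, computed with 1 FPKM added to each, was 1.33, 1.06 and 1.54 in the 8-cell libraries and 6.07 and 6.44 in the blastocyst libraries. Spic, an ETS factor, fell from 319.7 ± 41.1 to 46 ± 5.08 FPKM, and Tdgf1, the Nodal co-receptor, from 65.9 ± 12.1 to 9.03 ± 3.15 FPKM. The orphan nuclear receptor gene Esrrb fell from 47.2 ± 2.18 to 21.9 ± 1.35 FPKM. Nr5a2, another nuclear receptor gene, was at 255, 113 and 241 FPKM in the 8-cell libraries and 82.5 and 91.3 FPKM in the blastocyst libraries (log2 fold change -1.13 ± 0.33 (SE), adjusted p = 0.0196), with 8-cell library 2 well below the other two; without 8-cell library 1 its adjusted p was 0.0569 and without blastocyst library 1 or 2 it was 0.0804 or 0.0575. Dppa3 (STELLA), which protects maternal DNA methylation, remained among the most abundant genes at both stages, at 2486, 2411 and 2218 FPKM in the 8-cell libraries and 1911 and 1925 FPKM in the blastocyst libraries. Its log2 fold change of -0.30 lost its call in 6 of 15 alternative settings, with adjusted p values of 0.113 and 0.104 without blastocyst library 1 or 2 and 0.144 without 8-cell library 1. Fbxo15, an OCT4 target, fell from 1240.3 ± 140.4 to 555 ± 11.8 FPKM.

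**Figure D2:**
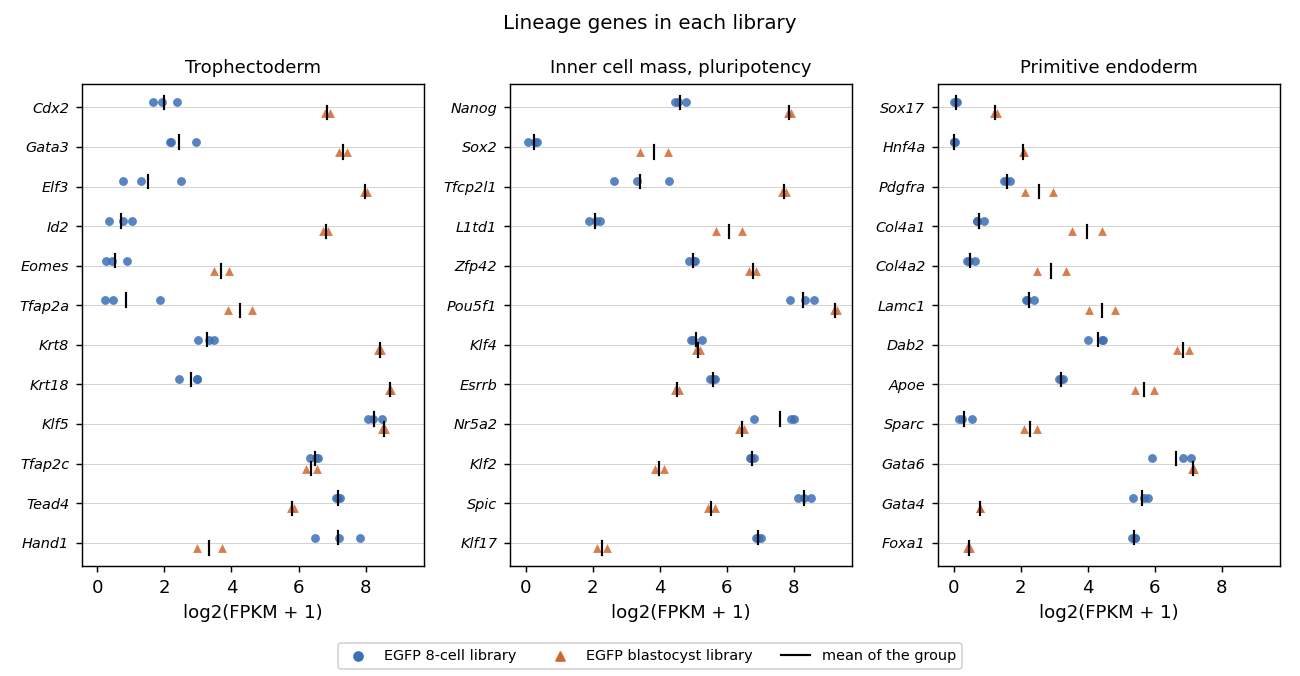
FPKM of trophectoderm, pluripotency and primitive endoderm genes as log2(FPKM + 1), with 1 circle per EGFP 8-cell library, 1 triangle per EGFP blastocyst library and a bar at each group's mean. Cdx2, Gata3, Krt8, Krt18, Nanog and Sox2 lie to the right in blastocysts, Klf17, Spic, Hand1, Gata4 and Foxa1 to the left, and Klf5, Tfap2c, Klf4 and Gata6 overlap or nearly so.

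Primitive endoderm products were called higher more often than lower, while the few regulators tested went both ways. Of 7 tested transcription factors, 4 were higher (57.1%, against 42.6% of all genes tested) and 2 lower (Gata4 and Foxa1; 28.6%, against 24.9%). Their median was 1.19. Summed over the 11 members found, they stood at 208, 155 and 219 FPKM in the 8-cell libraries and 161 and 160 FPKM in the blastocyst libraries. GATA6 and GATA4 are transcription factors of this lineage, with GATA6 acting first, and the lineage secretes the first basement membrane. Gata6 was at 114, 60.005 and 135 FPKM in the 8-cell libraries and 142 and 137 FPKM in the blastocyst libraries and did not pass the test (95% interval of the log2 fold change -0.22 to 1.25). Gata4 was at 50.7, 54.9 and 39.6 FPKM in the 8-cell libraries and 0.712 and 0.718 FPKM in the blastocyst libraries (log2 fold change -4.84 ± 0.17 (SE), adjusted p = 1.1e-05), and Foxa1, a forkhead factor of endoderm, at 41.5, 39.2 and 41.6 FPKM in the 8-cell libraries and 0.406 and 0.322 FPKM in the blastocyst libraries (log2 fold change -4.94 ± 0.14 (SE), adjusted p = 1.1e-05). Both factors were thus clearly present at the 8-cell stage and below 1 FPKM in both blastocyst libraries. The log2 ratio of Gata4 to Gata6 was -1.16, -0.13 and -1.74 in the 8-cell libraries and -6.38 and -6.33 in the blastocyst libraries. Sox17 and Hnf4a, later endoderm factors, were near 0 at the 8-cell stage and reached 1.44 and 1.31 FPKM and 3.29 and 3.18 FPKM. Both passed the filter through the blastocyst libraries alone, so they could not have been called lower.

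Of the receptors and basement membrane products, 12 of 16 were higher and none lower, with a median of 1.32. The 4 not called were Amn, P4ha1, Nid1 and Lrpap1, though Nid1 was called without blastocyst library 1 (adjusted p = 0.00121) and P4ha1 without library 2 (0.0199). Col4a1, a type IV collagen chain, was at 0.623, 0.619 and 0.873 FPKM in the 8-cell libraries and 20.4 and 10.7 FPKM in the blastocyst libraries (log2 fold change 3.22 ± 0.27 (SE), adjusted p = 9e-05). Its partner Col4a2 rose from 0.419 ± 0.132 to 6.93 ± 3.32 FPKM, the laminin chain gene Lamc1 from 3.77 ± 0.462 to 21.3 ± 8.34 FPKM and the endocytic adaptor gene Dab2 from 19 ± 3.37 to 115 ± 20.4 FPKM (SD, n = 3 and 2). Pdgfra, the defining receptor of the lineage, was at 2.24, 1.93 and 1.83 FPKM in the 8-cell libraries and 6.81 and 3.39 FPKM in the blastocyst libraries (log2 fold change 0.97 ± 0.26 (SE), adjusted p = 0.0134). For these collagen, laminin and receptor genes blastocyst library 1 was the higher of the pair. The whole list, with 16 of 23 higher and a median of 1.19, rested partly on that library: without it 5 of 16 were called higher, the median was 0.46 and Pdgfra had an adjusted p of 0.124. Without blastocyst library 2, 10 of 15 were called higher. Fewer genes also pass the filter when a blastocyst library is left out.

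Cell junction and polarity genes rose broadly, with 32 of 41 tested members higher, 4 lower (Tjp1, F11r, Mark2 and Crb3) and a median of 1.24. The F11r call was lost without blastocyst library 2 (adjusted p = 0.103). Desmosomes, which tie keratin filaments together between trophectoderm cells, gave the clearest set: 8 of 9 genes were higher and none lower. Dsp (desmoplakin) was at 1.11, 2.43 and 3.02 FPKM in the 8-cell libraries and 63.3 and 65.8 FPKM in the blastocyst libraries (log2 fold change 4.41 ± 0.27 (SE), adjusted p = 3.4e-05). Dsg2 (desmoglein) was at 0.125, 0.326 and 0.215 FPKM in the 8-cell libraries and 22.3 and 15.2 FPKM in the blastocyst libraries (log2 fold change 4.0 ± 0.21 (SE), adjusted p = 2.2e-05). Pkp2 rose from 0.89 ± 0.954 to 22.7 ± 0.84 FPKM, Dsc2 from 0.247 ± 0.042 to 3.85 ± 0.172 FPKM and Jup, shared with adherens junctions, from 7.96 ± 0.366 to 22.9 ± 2.36 FPKM. Desmoglein and desmocollin genes thus started from below 1 FPKM, whereas Jup was present throughout.

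Adherens junction genes were already expressed at the 8-cell stage, when E-cadherin drives compaction, and 7 of 8 were higher in blastocysts. Ctnna1 (alpha-catenin) rose from 71.8 ± 2.83 to 204 ± 12.3 FPKM and Epcam, an epithelial adhesion gene, from 24.9 ± 1.41 to 214 ± 71.9 FPKM. Cdh1 (E-cadherin) was at 74.8, 63.7 and 75.6 FPKM in the 8-cell libraries and 173 and 92.4 FPKM in the blastocyst libraries (log2 fold change 0.82 ± 0.25 (SE), adjusted p = 0.0211), and its adjusted p was 0.103 without blastocyst library 1 and 0.0503 without 8-cell library 2. Tight junctions seal the blastocoel, and their scaffold genes moved in different directions. Tjp3 was at 0.546, 1.29 and 0.588 FPKM in the 8-cell libraries and 13.2 and 13.8 FPKM in the blastocyst libraries (log2 fold change 3.02 ± 0.22 (SE), adjusted p = 5.5e-05), while Tjp1 was at 89, 84.2 and 72.5 against 54.9 and 61.4 FPKM (log2 fold change -0.48 ± 0.13 (SE), adjusted p = 0.0118; adjusted p = 0.0894 without blastocyst library 1). The apical genes Ezr (ezrin) and Msn (moesin), which link actin to the membrane, rose from 1.57 ± 0.621 to 60.4 ± 1.7 FPKM and 1.02 ± 0.264 to 36.7 ± 2.1 FPKM, respectively. Pard6b, Prkci and Pard3, the core of the PAR polarity complex, rose by 2.54, 2.47 and 1.55 on the log2 scale.

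Genes of fluid transport into the blastocoel were mixed, with 5 of 13 higher (Atp1b1, Aqp3, Slc9a3r1, Slc6a14 and Slc7a6) and 4 lower (Atp1b3, Aqp9, Aqp11 and Slc4a11). These shares, 38.5% and 30.8%, lay near the 42.6% and 24.9% of all genes tested. Without blastocyst library 1, 2 were called higher and the list's median was -0.18 in place of 0.27; without 8-cell library 1 or 3, 3 were. With median-of-ratios scaling 3 were higher and 5 lower, and with quantile normalization 3 and 6. The calls of Slc6a14 and Slc7a6 were lost with both scalings (adjusted p = 0.135 and 0.197 with median-of-ratios scaling) and in 9 of 14 and 8 of 15 alternative settings in all. The sodium pump is built from an alpha and a beta subunit. Atp1b1 was at 4.64, 2.9 and 3.75 FPKM in the 8-cell libraries and 51.4 and 37.5 FPKM in the blastocyst libraries (log2 fold change 3.25 ± 0.21 (SE), adjusted p = 4.1e-05), and Atp1b3 fell, at 73, 72.5 and 60.8 FPKM in the 8-cell libraries and 30.6 and 26.5 FPKM in the blastocyst libraries (log2 fold change -1.24 ± 0.13 (SE), adjusted p = 0.000225). In the 8-cell libraries Atp1b3 was the more abundant beta subunit transcript per length, and in both blastocyst libraries Atp1b1 was above it. Among water channels, Aqp3 was at 34, 58 and 16.7 FPKM in the 8-cell libraries and 158 and 73 FPKM in the blastocyst libraries (log2 fold change 1.71 ± 0.51 (SE), adjusted p = 0.0209), with an adjusted p of 0.13 without blastocyst library 1. Aqp9 fell from 72.5 ± 6.03 to 13.1 ± 5.38 FPKM and Aqp11 from 11 ± 2.81 to 0.464 ± 0.104 FPKM (SD, n = 3 and 2). Aqp8 was below 0.1 FPKM in every library.

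In the Hippo pathway 9 of 21 members were higher and 7 lower, 42.9% and 33.3% against the 42.6% and 24.9% of all genes. Tead4, counted in the trophectoderm list, was not among these 21. Without blastocyst library 2, 4 were called higher. The balance turned with the scaling: 5 were higher and 8 lower with median-of-ratios scaling, and 5 and 7 with quantile normalization. Of 13 kinases and upstream regulators of the pathway 5 were higher and 6 lower, with log2 fold changes from -1.60 to 2.31. Wwc1 held 161, 214 and 153 fragments in the 8-cell libraries and 1261 and 1287 in the blastocyst libraries. Amot held 2085, 2013 and 2481 against 4548 and 4956 fragments. The falls included Nf2, which codes for the membrane activator merlin (59.8, 79.5 and 56.6 against 26.1 and 24.2 FPKM), Mob1b (35.5, 34.5 and 38.3 against 10.5 and 12 FPKM) and Stk4 (34.9, 34.7 and 39.5 against 19.1 and 22.3 FPKM). The effector Yap1 was also lower (74.5, 81.4 and 78 against 43.2 and 46.8 FPKM; log2 fold change -0.78 ± 0.10 (SE), adjusted p = 0.000605). Tead1 and Tead2 rose from 10.3 ± 2.31 to 21.8 ± 2.36 FPKM and 2.16 ± 1.02 to 21.1 ± 1.35 FPKM, respectively, while Tead4 fell, so that Tead4 exceeded Tead2 at least 40-fold in each 8-cell library and less than 3-fold in each blastocyst library.

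In FGF and ERK signalling, which directs the choice between epiblast and primitive endoderm, 5 of 17 members were higher (Fgfr1, Fgfbp1, Frs2, Dusp4 and Dusp14) and 8 lower. Fgfr2, described below, was not among these 17. The count higher was 3 without blastocyst library 1, and the median of 0.09 was -0.45 and -0.44 without blastocyst library 1 or 2. The Fgfr1 call was lost in 6 of 15 alternative settings, with adjusted p values of 0.112 and 0.197 with median-of-ratios scaling and quantile normalization and 0.257 without blastocyst library 1. Fgf4, the ligand made by epiblast cells, was at 2.96, 10.1 and 2.51 FPKM in the 8-cell libraries and 3.68 and 3.87 FPKM in the blastocyst libraries and did not pass the test. Receptor genes diverged: Fgfr4 fell from 9.5 ± 2.68 to 1.65 ± 0.174 FPKM and Fgfr3 from 9.32 ± 2.52 to 3.63 ± 1.86 FPKM, and Fgfr2, the trophectoderm receptor, was at 16, 18.6 and 19.8 against 33.7 and 25.3 FPKM (log2 fold change 0.67 ± 0.17 (SE), adjusted p = 0.00956). The Fgfr3 call was lost without blastocyst library 2 (adjusted p = 0.0685) and the Fgfr2 call without library 1 (0.0859). Dusp4, a phosphatase induced by ERK, rose from 2.89 ± 2.06 to 42.8 ± 7.39 FPKM, while Spred1 and Spry4, ERK pathway inhibitors, changed by -1.49 and -1.22. Myc fell from 16.3 ± 3.23 to 5.67 ± 0.571 FPKM.

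Among BMP, Nodal and ID genes 8 of 14 were higher and none lower, except with quantile normalization, where 2 were lower. Id2 was not among these 14. Without blastocyst library 2, 5 of 13 were higher. The activin receptor genes Acvr2b and Acvr1b rose from 1.02 ± 0.148 to 7.22 ± 0.0359 FPKM and 1.18 ± 0.3 to 6.15 ± 1.6 FPKM, respectively, and Smad7, the inhibitory SMAD, from 5.61 ± 3.02 to 19 ± 0.186 FPKM. Id3 did not pass the test (8.67, 12.8 and 12.5 against 9.81 and 8.07 FPKM), and Id1 was below 1 FPKM in every library, beside the rise of Id2 given above. With quantile normalization the adjusted p of Id3 was 0.0211, in the downward direction. Of 10 LIF and JAK-STAT genes 2 were higher (Jak1 and Stat3) and 4 lower. In this pathway, which LIF uses to maintain naive pluripotency, Stat3 was at 2.5, 3.24 and 2.65 FPKM in the 8-cell libraries and 24.3 and 27.1 FPKM in the blastocyst libraries (log2 fold change 2.82 ± 0.16 (SE), adjusted p = 3e-05). Its inhibitor Socs3 fell, as given above, and so did Jak2 (-1.79), Pim1 (-1.62) and Pim3 (-1.43), kinase genes of the pathway. Lifr did not pass the filter.

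**Figure D3:**
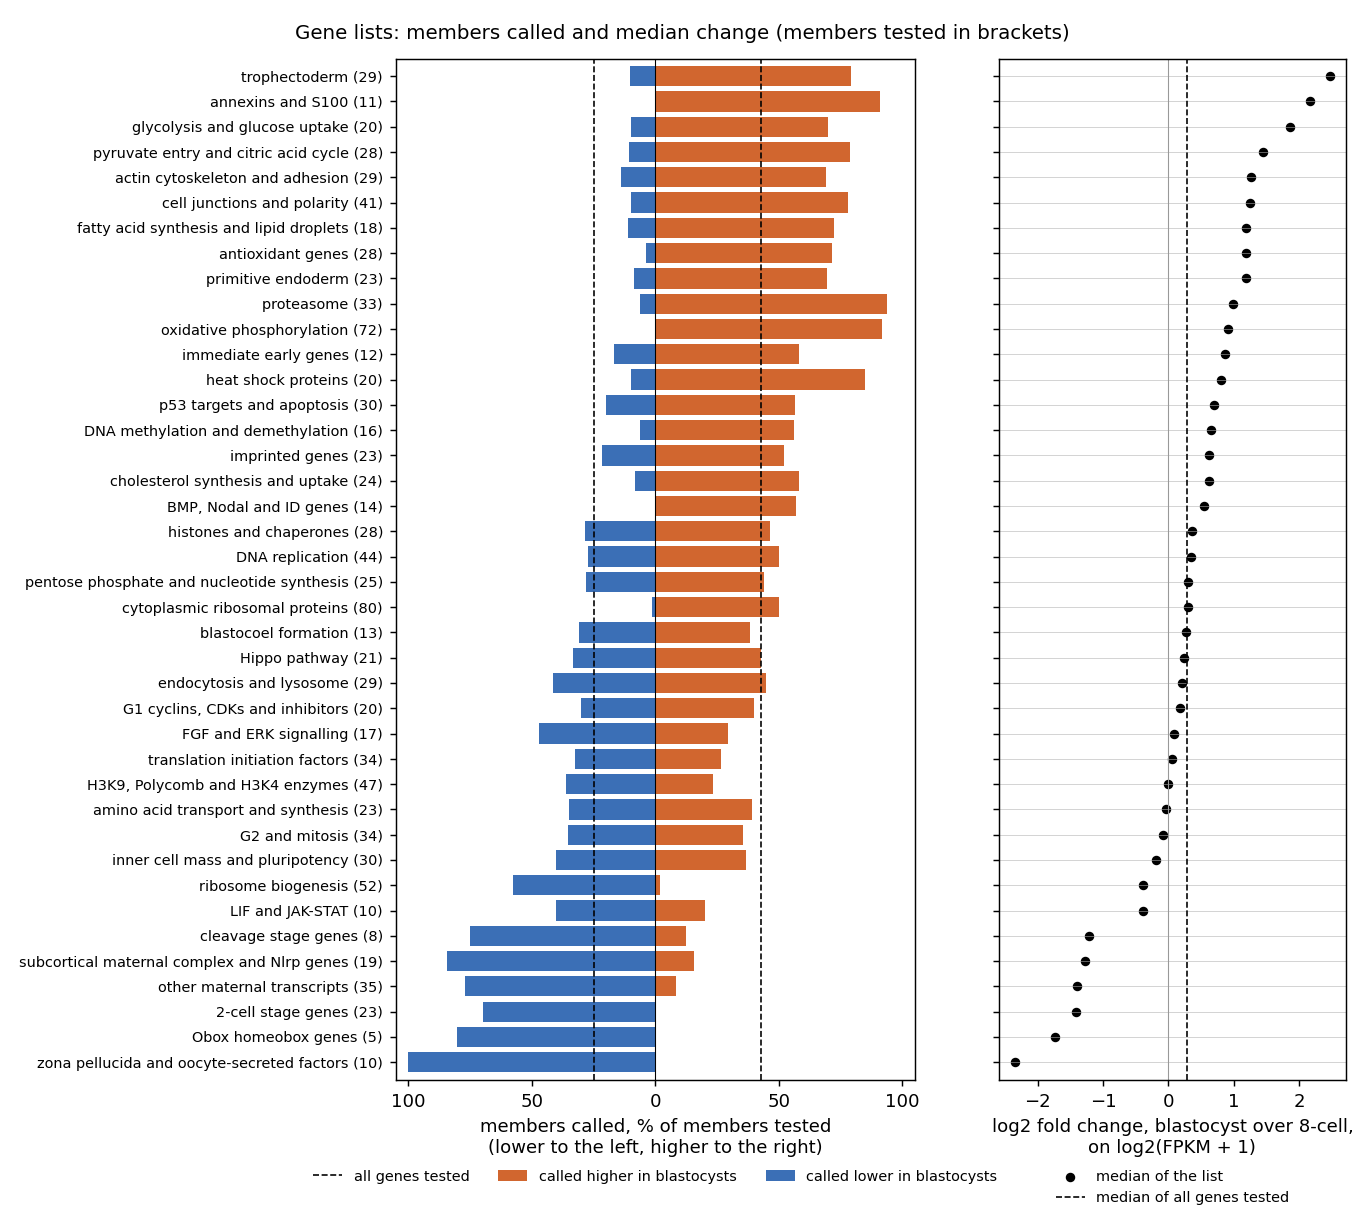
Left, share of each list's tested members called higher (right of 0) or lower (left of 0) in blastocysts, in percent, with dashed lines at the shares over all 12199 genes, 42.6% and 24.9%. Right, the median log2 fold change of each list with the median of all genes, 0.28, as a dashed line; trophectoderm genes lie highest and zona pellucida genes lowest.

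Transcripts made by the growing oocyte were lower in blastocysts almost throughout. All 10 tested genes of the zona pellucida, the glycoprotein coat of the egg, and of oocyte-secreted factors were lower, with a median of -2.35. Zp3, the sperm-binding zona protein, was at 16.7, 16.5 and 13.4 FPKM in the 8-cell libraries and 1.14 and 1.28 FPKM in the blastocyst libraries (log2 fold change -2.90 ± 0.17 (SE), adjusted p = 3e-05). Gdf9 was at 22.7, 25.1 and 22.1 FPKM in the 8-cell libraries and 2.86 and 2.83 FPKM in the blastocyst libraries (log2 fold change -2.66 ± 0.14 (SE), adjusted p = 2.2e-05), and its partner Bmp15 fell from 9.5 ± 2.05 to 1.42 ± 0.106 FPKM. These oocyte transcripts were thus still measurable in every 8-cell library. Omt2b was at 19, 72.5 and 11.2 FPKM in the 8-cell libraries and 0.773 and 0.242 FPKM in the blastocyst libraries, with 8-cell library 2 several times above the other two. Of 35 further maternal transcripts for storage, decay and meiosis, 27 were lower and 3 higher (Patl2, Zfp36l2 and Tut4; median -1.40), with 1 higher without blastocyst library 2. Btg4, the deadenylase adaptor for maternal mRNA decay, was at 23.4, 25.5 and 22.5 FPKM in the 8-cell libraries and 1.65 and 1.01 FPKM in the blastocyst libraries (log2 fold change -3.42 ± 0.17 (SE), adjusted p = 2.1e-05). Npm2, the egg nucleoplasmin, was at 22.7, 26.3 and 25.1 FPKM in the 8-cell libraries and 1.4 and 2.27 FPKM in the blastocyst libraries (log2 fold change -3.19 ± 0.18 (SE), adjusted p = 2.8e-05), and Npm1, its somatic relative, did not pass the test (1619.7, 1428 and 1506 against 1403 and 1365 FPKM) except, downward, with either other scaling. Zar1 fell from 19.6 ± 2.99 to 2.76 ± 0.245 FPKM, the oocyte linker histone gene H1f8 from 13 ± 1.7 to 1.92 ± 0.0539 FPKM and Gpr3, which holds the oocyte in meiotic arrest, from 13.2 ± 2.45 to 0.159 ± 0.0483 FPKM.

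The subcortical maternal complex is a protein lattice beneath the egg membrane that persists through cleavage. Of its 19 members and Nlrp relatives, 16 were lower and 3 higher. Nlrp5 (MATER) fell from 10.8 ± 0.983 to 1.61 ± 0.218 FPKM, Padi6 from 25.2 ± 3.28 to 4.97 ± 0.388 FPKM and Tle6 from 9.23 ± 1.1 to 2.68 ± 0.341 FPKM (SD, n = 3 and 2). The 3 exceptions rose in both blastocyst libraries. Khdc3 (FILIA) was at 39, 28.5 and 52.4 FPKM in the 8-cell libraries and 606 and 580.1 FPKM in the blastocyst libraries (log2 fold change 3.90 ± 0.23 (SE), adjusted p = 3.1e-05). Nlrp4c was at 8.74, 7.74 and 5.38 FPKM in the 8-cell libraries and 50.7 and 59.7 FPKM in the blastocyst libraries (log2 fold change 2.78 ± 0.20 (SE), adjusted p = 5.7e-05) and Ooep at 3.7, 2.09 and 3 FPKM in the 8-cell libraries and 14.7 and 8.55 FPKM in the blastocyst libraries (log2 fold change 1.66 ± 0.27 (SE), adjusted p = 0.00152). Khdc3 in blastocysts was thus among the genes above 500 FPKM, while Khdc1b, from a related KH-domain family, fell from 66 ± 14.4 to 3.35 ± 0.0988 FPKM. Members of one complex thus moved in opposite directions.

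Genes of the first zygotic transcription at the 2-cell stage were low or falling. None of 23 tested members was higher and 16 were lower (median -1.42). Tdpoz4, of a TRAF and POZ domain family, was at 65.4, 68.4 and 48.6 FPKM in the 8-cell libraries and 0.0928 and 0.24 FPKM in the blastocyst libraries (log2 fold change -5.72 ± 0.19 (SE), adjusted p = 1.1e-05). Trim43b was at 555, 433 and 507 FPKM in the 8-cell libraries and 17.8 and 16.7 FPKM in the blastocyst libraries (log2 fold change -4.77 ± 0.13 (SE), adjusted p = 1.1e-05), and Trim43c fell from 89 ± 20.4 to 2.64 ± 0.35 FPKM. Among Obox homeobox genes 4 of 5 were lower, and the other was not called, with a log2 fold change of 0.40. Summed over the 7 members found, the list stood at 801, 671 and 750 FPKM in the 8-cell libraries. The sums were 290 and 383 FPKM in the blastocyst libraries, most of it outside the members named below. Obox6 was at 514, 445 and 505 FPKM in the 8-cell libraries and 19.1 and 13.2 FPKM in the blastocyst libraries (log2 fold change -4.85 ± 0.16 (SE), adjusted p = 1.1e-05). Its 8-cell level was far above that of Obox1, Obox2 and Obox5, which were at 2 to 9 FPKM there and below 0.5 FPKM in blastocysts. These families hold near-identical copies, so values of single members are uncertain. Of cleavage-stage genes, Alppl2, an alkaline phosphatase gene, fell from 1261 ± 62.6 to 376 ± 184 FPKM and Folr1, a folate receptor gene, from 299 ± 10.8 to 150.1 ± 60.6 FPKM, both with blastocyst library 1 the higher of the pair. Naa11, an acetyltransferase gene, rose from 3.58 ± 0.955 to 13.6 ± 1.18 FPKM.

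**Figure D4:**
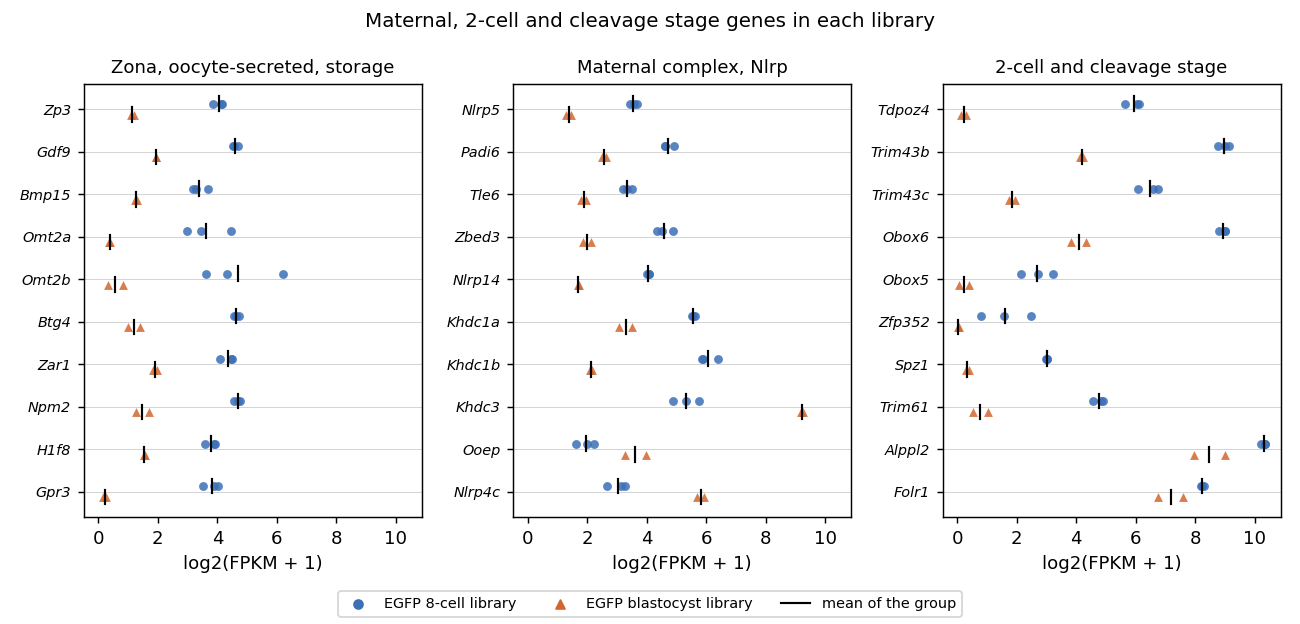
FPKM of oocyte, subcortical maternal complex, Nlrp, 2-cell and cleavage stage genes as log2(FPKM + 1), with 1 circle per EGFP 8-cell library, 1 triangle per EGFP blastocyst library and a bar at each group's mean. All genes shown are lower in both blastocyst libraries than in all 8-cell libraries except Khdc3, Ooep and Nlrp4c, which are higher.

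Genes of glucose use were called higher more often than genes overall. Of 20 glycolysis and glucose uptake genes, 14 were higher (70%, against 42.6%) and 2 lower (Hk1 and Ldhb; median 1.85). Slc2a1 (GLUT1) was at 0.691, 0.98 and 1.63 FPKM in the 8-cell libraries and 27.8 and 15.9 FPKM in the blastocyst libraries (log2 fold change 3.42 ± 0.29 (SE), adjusted p = 9.1e-05). Slc2a3 (GLUT3), a high-affinity transporter, was at 10.8, 22 and 9.34 FPKM in the 8-cell libraries and 206 and 94.1 FPKM in the blastocyst libraries (log2 fold change 3.31 ± 0.42 (SE), adjusted p = 0.000473). For both transporters blastocyst library 1 was near 2 times library 2, and each blastocyst library was above every 8-cell library. Hexokinase, which traps glucose in the cell, is coded by genes that crossed in level: the log2 ratio of Hk1 to Hk2 was 2.15, 1.37 and 1.59 in the 8-cell libraries and -1.59 and -1.71 in the blastocyst libraries. Hk1 itself was at 39.99, 43.9 and 36 against 13.3 and 12.6 FPKM and Hk2 at 8.21, 16.3 and 11.3 against 41.9 and 43.3 FPKM, a called fall and a called rise. Aldoa rose from 50.1 ± 2.36 to 231 ± 28.8 FPKM and Pkm, the pyruvate kinase of growing cells, from 7.37 ± 1.51 to 87.5 ± 11.7 FPKM. Gapdh, at 0.482, 0.198 and 0.553 against 36.3 and 29 FPKM, Eno1 and Tpi1 were also called higher, but the genome holds many copies of these genes and their levels are uncertain. Lactate dehydrogenase is a tetramer of A and B subunits, and Ldhb, the subunit stored in the egg, was at 19.9, 16.9 and 19.8 FPKM in the 8-cell libraries and 3.68 and 3.03 FPKM in the blastocyst libraries (log2 fold change -2.19 ± 0.16 (SE), adjusted p = 5.2e-05). Ldha was at 1.52, 6.28 and 3.67 against 3.32 and 7.26 FPKM and did not pass the test.

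Genes of pyruvate entry were mixed, 3 of 8 higher (Pdhb, Dlat and Dld, the first with an adjusted p of 0.158 under median-of-ratios scaling and 0.108 without blastocyst library 2) and 3 lower (Mpc1, Mpc2 and Pdk1), while those of the citric acid cycle were mostly higher. Mpc2, a subunit of the mitochondrial pyruvate carrier, fell from 142 ± 11.3 to 55.7 ± 3.55 FPKM and Mpc1 from 41 ± 0.883 to 28.8 ± 5.16 FPKM, the latter with an adjusted p of 0.117 without blastocyst library 1. Pdk1, a kinase gene that inhibits pyruvate dehydrogenase, was the other lower member (-0.71), a call lost without blastocyst library 1 or 2 (adjusted p = 0.16 and 0.0819). Pdha1, of pyruvate dehydrogenase, did not pass the test (170.0, 181 and 212 against 147 and 172 FPKM) except, downward, with median-of-ratios scaling (adjusted p = 0.017), while Dlat, another subunit of the complex, rose from 4.39 ± 0.455 to 22.6 ± 2.17 FPKM. Of 20 citric acid cycle genes, 19 were higher and none lower, with a median of 1.94. Idh3a was at 7.93, 7.01 and 9.49 FPKM in the 8-cell libraries and 76.1 and 97.1 FPKM in the blastocyst libraries (log2 fold change 3.26 ± 0.17 (SE), adjusted p = 2.2e-05) and Mdh1, the cytosolic malate dehydrogenase of the malate shuttle, at 2.01, 1.51 and 2.8 FPKM in the 8-cell libraries and 26.6 and 26.7 FPKM in the blastocyst libraries (log2 fold change 3.17 ± 0.21 (SE), adjusted p = 4e-05). Mdh2, its mitochondrial counterpart, was already high and rose from 181 ± 11.1 to 369 ± 2.36 FPKM. Nuclear genes of oxidative phosphorylation followed, with 66 of 72 higher, none lower and a median of 0.90. Complex I contributed 36 of 37, complex III 9 of 9, complex IV with cytochrome c 8 of 11 and ATP synthase 13 of 15. Among them, Ndufa6 rose from 23.7 ± 5.73 to 100.3 ± 1.07 FPKM, Uqcrc1 from 47 ± 2.18 to 128 ± 3.56 FPKM and Atp5a1 from 179 ± 17.1 to 332 ± 5.82 FPKM (SD, n = 3 and 2). The direction of these medians held under median-of-ratios scaling and quantile normalization, where oxidative phosphorylation stood at 0.68 and 0.86.

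Pentose phosphate and nucleotide synthesis genes lay near the shares of all genes tested. Of 25 genes 11 were higher (44%, against 42.6%) and 7 lower (28%, against 24.9%), with a median of 0.30 (all genes 0.28). Impdh2, the limiting enzyme for guanine nucleotides, was at 943, 936 and 972 FPKM in the 8-cell libraries and 232 and 238 FPKM in the blastocyst libraries (log2 fold change -2.01 ± 0.09 (SE), adjusted p = 1.6e-05). Prps1, which makes the ribose phosphate donor, also fell (311, 355 and 399.7 against 119 and 134 FPKM), while Rrm1, a ribonucleotide reductase gene, rose from 45.5 ± 3.24 to 113 ± 1.24 FPKM. Lipid genes rose more often than they fell: 13 of 18 fatty acid and lipid droplet genes and 14 of 24 cholesterol genes were higher, with 2 (Dgat2 and Acsl4) and 2 (Fdft1 and Scap) lower. Without blastocyst library 1, 9 of 23 cholesterol genes were called higher, and with quantile normalization 9 of 24. The Scap call was lost without blastocyst library 2 (adjusted p = 0.0588). Fabp3, a fatty acid binding protein, was at 27.9, 22.5 and 14.3 FPKM in the 8-cell libraries and 816 and 739.9 FPKM in the blastocyst libraries (log2 fold change 5.16 ± 0.25 (SE), adjusted p = 1.9e-05), and Fabp5 rose from 3.19 ± 1.19 to 115 ± 5.25 FPKM. Plin2, which coats lipid droplets, rose from 5.29 ± 0.927 to 56.2 ± 1.8 FPKM. Acsl4, an acyl-CoA synthetase, fell from 63.5 ± 18.2 to 5.12 ± 0.848 FPKM and Dgat2, which makes triglyceride, from 24.9 ± 1.99 to 4.3 ± 1.31 FPKM. Srebf2, the regulator of sterol genes, was at 0.757, 0.844 and 0.928 FPKM in the 8-cell libraries and 18.4 and 15.1 FPKM in the blastocyst libraries (log2 fold change 3.26 ± 0.17 (SE), adjusted p = 2.2e-05). Its targets diverged, since Insig1 rose from 7.89 ± 0.283 to 47.3 ± 5.04 FPKM while Hmgcs1 (19.1, 34.4 and 18.9 against 27.5 and 30.5 FPKM) and Sqle (22.7, 28.9 and 17.4 against 18.2 and 17.5 FPKM) did not pass the test. Their adjusted p was 0.00641 upward without 8-cell library 2 and 0.0337 downward without 8-cell library 3.

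**Figure D5:**
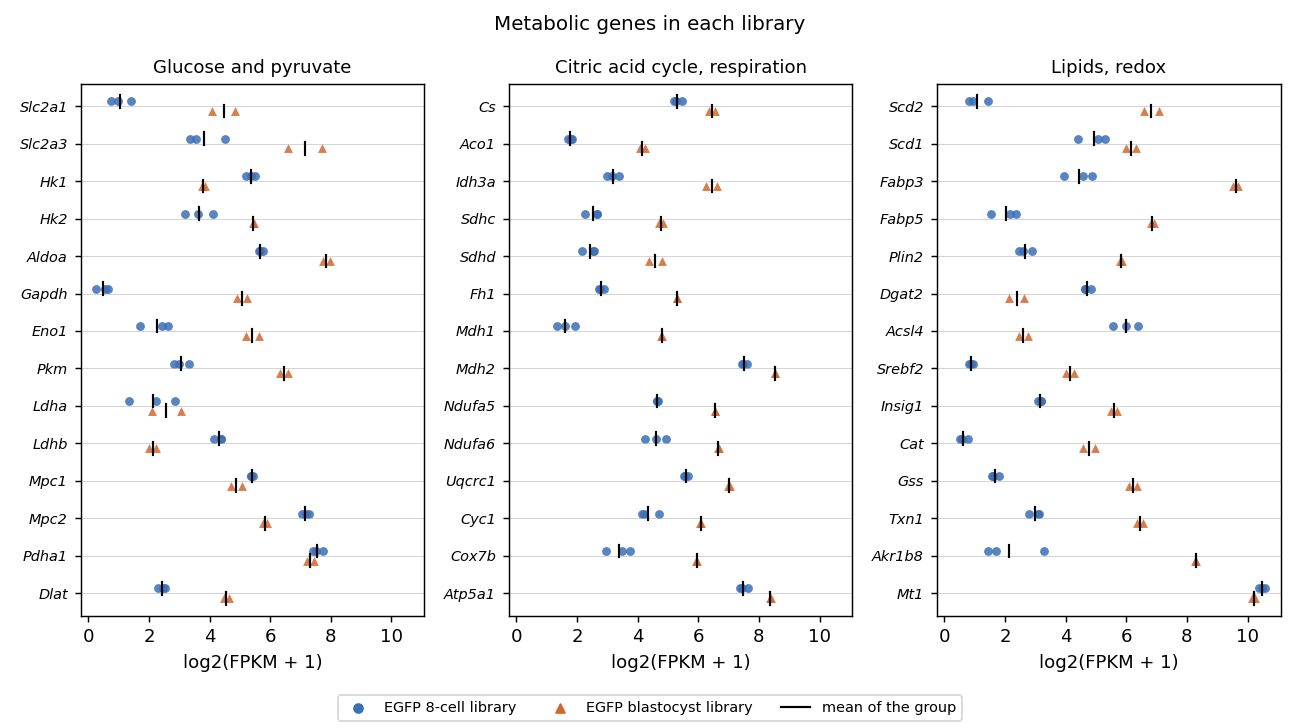
FPKM of genes of glucose and pyruvate use, of the citric acid cycle and respiration, and of lipid and redox metabolism as log2(FPKM + 1), with 1 circle per EGFP 8-cell library, 1 triangle per EGFP blastocyst library and a bar at each group's mean. Hk1, Ldhb, Mpc1, Mpc2, Dgat2 and Acsl4 lie to the left in blastocysts, Ldha and Pdha1 overlap, and each of the citric acid cycle and respiration genes shown lies to the right.

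Amino acid genes were also mixed (9 of 23 higher, 8 lower), with 5 and 4 called higher without blastocyst library 1 or 2. The 9 and 8 called, 39.1% and 34.8%, stood against 42.6% and 24.9% of all genes tested. Beside the large rise of Ass1, Odc1 and Amd1, the first enzymes of polyamine synthesis, fell from 877 ± 39.8 to 487 ± 68.9 FPKM and 55.3 ± 2.26 to 23.2 ± 0.867 FPKM, respectively. Among antioxidant genes 20 of 28 were higher and 1 lower (Mt2, a metallothionein gene), with 3 lower under median-of-ratios scaling. The Mt2 call was lost without 8-cell library 1 (adjusted p = 0.0506) or blastocyst library 1 or 2 (0.0597 and 0.0553). Cat (catalase) was at 0.433, 0.717 and 0.487 FPKM in the 8-cell libraries and 22.7 and 30.3 FPKM in the blastocyst libraries (log2 fold change 4.14 ± 0.19 (SE), adjusted p = 1.8e-05). Gss, which completes glutathione, was at 2.47, 2.01 and 1.98 FPKM in the 8-cell libraries and 67.6 and 80.1 FPKM in the blastocyst libraries (log2 fold change 4.57 ± 0.16 (SE), adjusted p = 1.1e-05), and Txn1 (thioredoxin) rose from 7.05 ± 1 to 86.2 ± 8.6 FPKM. The metallothionein gene Mt1 was abundant at both stages and did not pass the test (1518, 1329 and 1419 against 1216 and 1138 FPKM), though its adjusted p was 0.0267 downward without 8-cell library 2 and lower still with either other scaling. Catalase and glutathione synthase transcripts thus went from below 3 FPKM to above 20 FPKM in every blastocyst library.

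Ribosomal protein genes and ribosome assembly genes diverged. Of 80 cytoplasmic ribosomal protein genes, 40 were higher and 1 lower, with a median of 0.30, next to that of all genes. This count depended on the scaling: with median-of-ratios scaling 12 were called higher and 7 lower. Without blastocyst library 1 or 2 the counts higher were 22 and 22, and many copies of these genes exist. Rpl41, the exception, fell from 2689.8 ± 174 to 1499 ± 17.3 FPKM. Of 52 ribosome biogenesis genes 30 were lower and 1 higher, with a median of -0.39 that lay below 0 under both other scalings as well (-0.61 and -0.44). Nolc1, a nucleolar assembly factor, was at 585, 551 and 549 FPKM in the 8-cell libraries and 148 and 147 FPKM in the blastocyst libraries (log2 fold change -1.92 ± 0.09 (SE), adjusted p = 1.8e-05). Wdr43 was at 582, 529 and 586 FPKM in the 8-cell libraries and 124 and 113 FPKM in the blastocyst libraries (log2 fold change -2.25 ± 0.10 (SE), adjusted p = 1.7e-05). Rrn3 and Ubtf, which start RNA polymerase I transcription of ribosomal RNA, fell from 148 ± 12.5 to 44.4 ± 2.1 FPKM and 127 ± 1.48 to 46.3 ± 2.47 FPKM, respectively. Npm3, a nucleoplasmin-family gene, was the 1 member that rose, from 27.6 ± 3.74 to 53.8 ± 3.65 FPKM.

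Of 34 translation initiation factor genes 9 were higher and 11 lower, with 4 higher and 16 lower under median-of-ratios scaling. Eif4e, the cap-binding protein, was at 155, 157 and 153 FPKM in the 8-cell libraries and 25 and 30.7 FPKM in the blastocyst libraries (log2 fold change -2.44 ± 0.12 (SE), adjusted p = 1.9e-05), and its inhibitor Eif4ebp1 at 37.3, 60.9 and 50.9 FPKM in the 8-cell libraries and 197 and 212 FPKM in the blastocyst libraries (log2 fold change 2.05 ± 0.20 (SE), adjusted p = 0.000146). The 2 genes thus crossed: Eif4e was above Eif4ebp1 in every 8-cell library and below it in both blastocyst libraries. Proteasome genes rose together, 31 of 33 higher and 2 lower (Psmb10 and Psmd7), with a median of 0.99. The Psmd7 call was lost in 9 of 15 alternative settings, including each one without a library (adjusted p = 0.265 without blastocyst library 1), and that of Psmb10 without blastocyst library 2 (0.0676). Psmc3 rose from 66.2 ± 9.11 to 269 ± 14.9 FPKM and Psmd2 from 52.8 ± 12.5 to 183 ± 14.7 FPKM (SD, n = 3 and 2). Among heat shock genes 17 of 20 were higher, and 10 of 19 without blastocyst library 2. The stress-inducible Hsp90aa1 was at 861, 640.3 and 809 FPKM in the 8-cell libraries and 3930.4 and 4316 FPKM in the blastocyst libraries (log2 fold change 2.43 ± 0.15 (SE), adjusted p = 3.3e-05). Hsp90b1 and Hspa5 of the endoplasmic reticulum rose from 30.5 ± 0.601 to 268 ± 106 FPKM and 66.7 ± 8.25 to 224 ± 94.2 FPKM, respectively, and the small heat shock gene Hspb8, near 0 at the 8-cell stage, reached 23.6 and 39 FPKM. Hspa1b, a classical stress-induced gene, fell from 5.22 ± 1.77 to 0.974 ± 0.0775 FPKM, and its near-identical neighbour Hspa1a was called lower (adjusted p = 0.0485), a call lost without blastocyst library 1 or 2 (0.191 and 0.137) and in 6 of 12 alternative settings in all.

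Cell cycle genes moved in both directions. Of 44 replication genes 22 were higher and 12 lower, and of 34 G2 and mitosis genes 12 and 12 (35.3% each). Replication genes (50% higher, 27.3% lower) and G1 genes (40% and 30%) lay near the shares of all genes tested, 42.6% and 24.9%. Of 20 G1 cyclins, CDKs and inhibitors 8 were higher and 6 lower, and of the 17 tested without blastocyst library 1 4 and 3; without library 2, 5 of 17 were higher. Lig1, the replicative DNA ligase, rose from 12.1 ± 0.288 to 59.4 ± 4.47 FPKM and Rpa1, which binds single-stranded DNA, from 6.89 ± 1.39 to 34.4 ± 4.46 FPKM. Ccnb1 (cyclin B1) was at 291, 290.2 and 276 FPKM in the 8-cell libraries and 95 and 105 FPKM in the blastocyst libraries (log2 fold change -1.50 ± 0.10 (SE), adjusted p = 4e-05). Ccne1 (cyclin E1) fell from 159 ± 23.9 to 67.4 ± 14.7 FPKM, and Ccna2 from 202 ± 11.5 to 113 ± 6.59 FPKM, while the condensin gene Ncapg rose from 6.83 ± 1.17 to 28.2 ± 1.38 FPKM. Of the D cyclins, which couple growth signals to CDK4, Ccnd3 was at 18, 21.2 and 23.9 FPKM in the 8-cell libraries and 65.7 and 55.9 FPKM in the blastocyst libraries (log2 fold change 1.49 ± 0.15 (SE), adjusted p = 0.000193), and Cdk4 rose from 35.4 ± 0.908 to 94.4 ± 10.6 FPKM. The log2 ratio of Ccnd1 to Ccnd3 was -1.70, -1.08 and -2.24 in the 8-cell libraries and -4.34 and -3.99 in the blastocyst libraries. Ccnd1 itself was called lower (log2 fold change -1.0 ± 0.30 (SE), adjusted p = 0.0221), a call lost without blastocyst library 1 (adjusted p = 0.0923) or 2 (0.069). Cdkn1b (p27), a CDK inhibitor, rose from 0.425 ± 0.194 to 3.6 ± 1.08 FPKM, and Cdkn1a (p21) did not pass the test (28.1, 29.96 and 22.8 against 34.3 and 31.9 FPKM).

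Among p53 and its targets 14 of 19 genes were higher and 2 lower (Aen and Tigar), with a median of 1.23. The Aen call was lost without 8-cell library 1 (adjusted p = 0.0638) or blastocyst library 1 or 2 (0.0567 and 0.116). Trp53 was at 11.1, 10.9 and 7.64 FPKM in the 8-cell libraries and 43.6 and 47 FPKM in the blastocyst libraries (log2 fold change 2.11 ± 0.18 (SE), adjusted p = 9.2e-05). Ccng1, a p53 target that acts in feedback, was at 15.9, 10.4 and 14 FPKM in the 8-cell libraries and 113 and 126 FPKM in the blastocyst libraries (log2 fold change 3.08 ± 0.18 (SE), adjusted p = 3.1e-05), and Btg2, an antiproliferative gene, rose from 0.906 ± 0.184 to 17.6 ± 3.59 FPKM. Both were higher in each blastocyst library, whereas Mdm2, the p53 ubiquitin ligase, rose by only 0.60. The BCL2 family divided: Bax, which opens the mitochondrial membrane, rose from 29.4 ± 2.76 to 63 ± 3 FPKM, and Mcl1, which opposes it, fell from 165 ± 12.1 to 75.1 ± 7.49 FPKM. Casp9, an initiator caspase gene, rose from 0.825 ± 0.228 to 5.22 ± 0.774 FPKM.

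DNA methylation is erased during cleavage and restored from the blastocyst on. Of 16 genes for these steps 9 were higher and 1 lower (Tet3), or 2 with either other scaling. Tet2, a dioxygenase that oxidises methylcytosine, was at 9.48, 7.64 and 10.4 FPKM in the 8-cell libraries and 163 and 170.0 FPKM in the blastocyst libraries (log2 fold change 4.05 ± 0.15 (SE), adjusted p = 1.1e-05). Tdg, the glycosylase that removes the oxidised base, was at 0.0682, 0 and 0.0294 FPKM in the 8-cell libraries and 8.28 and 7.19 FPKM in the blastocyst libraries (log2 fold change 3.08 ± 0.16 (SE), adjusted p = 2.2e-05). Tet1 did not pass the test (30.9, 37.1 and 29.9 against 27.9 and 33.4 FPKM) and Tet3, the enzyme of the zygote, fell from 8.08 ± 0.521 to 3.56 ± 0.364 FPKM. The 3 TET genes thus each took a different course. Of the de novo enzymes, Dnmt3b rose from 12.3 ± 2.37 to 43.6 ± 1.63 FPKM, its cofactor Dnmt3l from 5.87 ± 1.13 to 27.7 ± 0.755 FPKM, and Dnmt3a did not pass the test (12.1, 10.7 and 10.7 against 13.4 and 16.1 FPKM). Uhrf1, which brings DNMT1 to replicated DNA, rose from 8.52 ± 0.135 to 43.7 ± 8.59 FPKM, whereas Dnmt1 itself was at 26, 31.4 and 22.8 against 26.1 and 26 FPKM (95% interval of the log2 fold change -0.39 to 0.34).

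Of 47 enzymes and readers of histone H3 lysine 9, 27 and 4 methylation 11 were higher and 17 lower. The count higher was 7 and 6 without blastocyst library 1 or 2. Cbx1 (HP1 beta) was at 7.34, 7.61 and 8.07 FPKM in the 8-cell libraries and 57.7 and 64.7 FPKM in the blastocyst libraries (log2 fold change 2.84 ± 0.13 (SE), adjusted p = 1.6e-05), against a fall of Cbx3 (HP1 gamma) from 98.4 ± 4.86 to 58.6 ± 3.71 FPKM. Kdm4c, an H3K9 demethylase, fell from 33.9 ± 3.26 to 7.03 ± 0.244 FPKM, and the Polycomb genes Pcgf1 and Pcgf6 from 52.3 ± 11.2 to 7.26 ± 0.819 FPKM and from 46 ± 8.18 to 11.7 ± 0.825 FPKM. Jarid2, a cofactor of Polycomb repressive complex 2, rose from 72.9 ± 13.9 to 196 ± 9.98 FPKM, while its catalytic subunit Ezh2 had a 95% interval of -0.27 to 0.20. Kmt2a, an H3K4 methyltransferase, was at 0.365, 0.423 and 0.336 FPKM in the 8-cell libraries and 6.36 and 5.9 FPKM in the blastocyst libraries (log2 fold change 2.37 ± 0.16 (SE), adjusted p = 4.2e-05). The series maps histone H3.3, a replacement histone placed outside replication. Its genes H3f3a (121, 117 and 134 against 108 and 111 FPKM) and H3f3b (332, 405 and 286 against 264 and 280.1 FPKM) did not pass the test, with intervals of -0.42 to 0.07 and -0.67 to 0.05. With median-of-ratios scaling both were called lower (adjusted p = 0.0134 and 0.017), and H3f3b also without 8-cell library 3 (0.0248). The log2 ratio of H3f3a to H3f3b was -1.45, -1.78 and -1.09 in the 8-cell libraries and -1.28 and -1.33 in the blastocyst libraries.

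Of 28 genes of variant histones and H3 chaperones 13 were higher and 8 lower, with 8 higher under median-of-ratios scaling and 5 lower without blastocyst library 1 or 2. The 13 and 8 called, 46.4% and 28.6%, lay near the 42.6% and 24.9% of all genes tested. Subunits of the HIRA complex, which places H3.3, were lower: Hira was at 28.4, 33.6 and 32.2 FPKM in the 8-cell libraries and 17.1 and 19.3 FPKM in the blastocyst libraries (log2 fold change -0.75 ± 0.13 (SE), adjusted p = 0.00197). Its partners Ubn1 and Cabin1 fell from 26.5 ± 3.42 to 10.2 ± 0.264 FPKM and 22.5 ± 1.14 to 10.7 ± 0.0976 FPKM, respectively. Asf1a, which hands H3 to HIRA, rose from 14.4 ± 1.85 to 35.6 ± 7.25 FPKM. Chaf1a, which codes for p150 of CAF-1, the chaperone of replication-coupled H3, was at 27.7, 30.2 and 28.8 against 26.5 and 27.2 FPKM and Chaf1b at 18.7, 22.3 and 20.03 against 20.5 and 23.3 FPKM, with intervals of -0.36 to 0.16 and -0.22 to 0.42; neither passed the test, but Chaf1a was called lower with median-of-ratios scaling (adjusted p = 0.0318). Atrx, which places H3.3 at repeats with DAXX, fell from 67.6 ± 6.51 to 43 ± 4.15 FPKM; Daxx was called higher by 0.61, a call lost in 7 of 15 alternative settings, with adjusted p values of 0.0801 and 0.199 without blastocyst library 1 or 2 and 0.0546 without 8-cell library 1. Macroh2a1, a variant histone linked to silencing, was at 4.33, 6.12 and 7.13 FPKM in the 8-cell libraries and 76.6 and 74.3 FPKM in the blastocyst libraries (log2 fold change 3.50 ± 0.19 (SE), adjusted p = 2.6e-05).

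Of 23 imprinted genes 12 were higher and 5 lower (Igf2r, Phlda2, Grb10, Usp29 and Sgce, the last with an adjusted p of 0.0553 without blastocyst library 2). Leaving out blastocyst library 1 or 2, 7 of 21 were higher. The 12 and 5 called, 52.2% and 21.7%, stood against 42.6% and 24.9% of all genes tested. Sfmbt2, expressed from the paternal allele in trophoblast, rose from 1.63 ± 0.267 to 12.2 ± 0.828 FPKM and Slc38a4, an amino acid transporter gene, from 1.84 ± 0.657 to 16.5 ± 4.29 FPKM. Igf2r, the scavenger receptor for IGF2, was at 221, 242 and 228 FPKM in the 8-cell libraries and 72.6 and 35.8 FPKM in the blastocyst libraries (log2 fold change -2.15 ± 0.26 (SE), adjusted p = 0.000398), and Phlda2 fell from 10.3 ± 4.74 to 1.59 ± 0.719 FPKM. H19 was below 0.2 FPKM in every library. Xist, which silences 1 X chromosome in female embryos, was at 13.4, 13.6 and 48.6 FPKM in the 8-cell libraries and 25.6 and 15.7 FPKM in the blastocyst libraries, with 8-cell library 3 the highest and the stages overlapping. Rlim, its activator, was at 71, 72.5 and 60.6 against 84.5 and 109 FPKM and called higher, with an adjusted p of 0.164 without blastocyst library 2. Genes on the X chromosome were called higher in 41.9% and lower in 20.5% of cases, inside the range of the autosomes for the first (38.6% to 47.6%) and slightly below it for the second (21.9% to 29.4%).

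Among annexins, which bind calcium and membranes, and their S100 partners 10 of 11 were higher and none lower, except for 1 lower with quantile normalization, and 6 of 9 were higher without blastocyst library 2. Anxa2 was at 1.61, 1.08 and 1.66 FPKM in the 8-cell libraries and 94.2 and 112 FPKM in the blastocyst libraries (log2 fold change 5.41 ± 0.17 (SE), adjusted p = 1.1e-05), and its partner S100a10 at 7.76, 8.29 and 5.09 FPKM in the 8-cell libraries and 57.9 and 72.5 FPKM in the blastocyst libraries (log2 fold change 3.06 ± 0.21 (SE), adjusted p = 4.9e-05). S100a11 rose from 6.9 ± 2.19 to 127 ± 14.3 FPKM. Of 29 actin and adhesion genes 20 were higher and 4 lower (Vil1, Itgav, Itgb3 and Itgb5), of which the calls of Vil1 (adjusted p = 0.0961 and 0.163) and Itgb3 (0.086 and 0.353) were lost without blastocyst library 1 or 2. Actb was at 362, 332 and 389 FPKM in the 8-cell libraries and 2561 and 2679.8 FPKM in the blastocyst libraries (log2 fold change 2.86 ± 0.11 (SE), adjusted p = 1.2e-05), Actg1 rose from 61.6 ± 11.8 to 657 ± 47.8 FPKM, and Myh9, non-muscle myosin, from 32.5 ± 4.81 to 186 ± 8.98 FPKM. Actb, often used as a reference gene, thus differed about 7-fold between stages. Lysosomal and endocytic genes split, 13 of 29 higher (44.8%, against 42.6% of all genes tested) and 12 lower (41.4%, against 24.9%). Ctsl, the cysteine protease cathepsin L, was at 353, 395 and 292 FPKM in the 8-cell libraries and 61.2 and 39.9 FPKM in the blastocyst libraries (log2 fold change -2.77 ± 0.20 (SE), adjusted p = 5.7e-05), and Tfrc, the transferrin receptor, fell from 279 ± 10.7 to 34 ± 14.6 FPKM. Ctsd, an aspartic protease, rose from 92.5 ± 17.7 to 224 ± 84 FPKM and Cltc, clathrin heavy chain, from 48.4 ± 5.06 to 264 ± 26.6 FPKM. Of 12 immediate early genes 7 were higher and 2 lower (Btg1 and Zfp36). Klf6 was at 0.0797, 0.293 and 0.441 FPKM in the 8-cell libraries and 18.5 and 29.1 FPKM in the blastocyst libraries (log2 fold change 4.26 ± 0.24 (SE), adjusted p = 2.8e-05) and Jun rose from 1.58 ± 0.347 to 17.8 ± 1.68 FPKM, while Btg1 fell from 38.3 ± 20.1 to 7.27 ± 1.26 FPKM. Fos was below 1 FPKM in every library.

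Some genes were near absent at one stage, below 0.5 FPKM in each of its libraries and at least 5 FPKM in each library of the other. There were 69 such genes absent at the 8-cell stage and 33 absent in blastocysts. The former included Plau, which codes for urokinase (0.0205, 0.0633 and 0.199 against 36.2 and 9.57 FPKM), the lysosomal protease gene Tpp1 (0.0135, 0.111 and 0.102 against 24.5 and 12.6 FPKM), the protease gene Capn2 (0, 0 and 0.0779 against 14.7 and 13.6 FPKM), Rab17, of epithelial membrane traffic (0.222, 0 and 0.053 against 13 and 15.5 FPKM), and the ligand gene Wnt7b (0.305, 0.235 and 0.187 against 13.5 and 19.2 FPKM). For Plau and Tpp1, blastocyst library 1 was the higher. The latter included Fgf1, a growth factor gene (9.66, 15.8 and 13.5 against 0.264 and 0.444 FPKM), Pla2g4e, a phospholipase gene (9.06, 14.5 and 9.09 against 0.135 and 0.145 FPKM), Ehd2, of caveolae (9.94, 15.1 and 13 against 0.22 and 0.276 FPKM), Cacng7 (11.3, 14.8 and 9.52 against 0.154 and 0.057 FPKM) and Tmem150c (10.9, 13.1 and 7.08 against 0.201 and 0.0577 FPKM).

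At the other end, 879 genes (7.2% of those tested) had a 95% limma interval of the log2 fold change within -0.5 to 0.5. The 10 most abundant of them included Rplp0, Npm1, Rplp2, Rps26, H1f1, Rpl6, Ybx1 and H1f2: ribosomal proteins, linker histones, nucleophosmin and an RNA-binding protein of stored mRNA. Ybx1 was at 779.9, 749 and 777 against 667 and 656 FPKM and H1f2 at 802, 627 and 726 against 689 and 689 FPKM with an interval of -0.35 to 0.24. Ybx1 was called lower with median-of-ratios scaling (adjusted p = 0.00907), as were H1f1, Npm1 and Rps26. The most abundant transcripts were partly the same. Only genes of at least 300 bases were ranked. The 15 highest of each stage held 9.59% to 10.4% of the FPKM summed over all genes in the 8-cell libraries. In the blastocyst libraries they held 13.7% to 14.0%. Rpph1, the RNA of RNase P, led both, at 12246, 8236 and 13382 FPKM in the 8-cell libraries and 29332 and 29508 FPKM in the blastocyst libraries. Hsp90ab1, Dppa3, Hspa8, Rplp1, Rplp2, Rpl8, Rpl41 and Rn45s, the ribosomal RNA precursor, were on both lists. Alppl2, Fbxo15, Npm1, Mt1, Rps26 and H2bc18 were on the 8-cell list alone, and Hsp90aa1, Actb, Eef1a1, Calcoco2, Rpl4 and Rpl7 on the blastocyst list alone. Eef1a1, an elongation factor gene, rose from 819 ± 66.7 to 1809 ± 56.2 FPKM, and Calcoco2, an autophagy receptor gene, from 801 ± 142 to 1769 ± 61.7 FPKM.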

How the data were processed

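The RNA-seq libraries of EGFP blastocysts (2) and EGFP 8-cell embryos (3) were taken from 1 deposited table of FPKM values, which the authors computed per gene. Per the submitters' processing notes, the genome was mm10 and the tools included Trim Galore, HISAT2, Bowtie2, SAMtools and featureCounts. Tool versions, the annotation and the handling of strand and of reads with several matches are, in the sources used here, not given. Because the values are normalized, no count model was used. Fragment totals and gene lengths were recovered from the FPKM steps, and all 23316 genes above 0 gave whole fragments within 0.02. Genes of at least 1 FPKM in 2 or more of the 5 libraries were tested on log2(FPKM + 1) with limma 3.58.1 under R 4.3.3, a two-sided moderated test with a mean-variance trend and Benjamini-Hochberg adjustment (called below 0.05), after a test on simulated data. With 2 against 3 libraries no exact permutation test can pass that threshold. Of 25220 symbols, 25115 (99.6%) matched RefSeq GRCm38.p6, the build of mm10. Lists are described by counts and medians beside those of all genes; the comparison, the members and the lists were chosen with earlier results of these data known. Named genes were the 20 largest rises and falls among named genes of at least 300 bases, with at least 5 FPKM at the higher stage and no overlap; list anchors and up to 6 called members per role; pairs; the 10 largest changes per direction among near-absent genes; the 10 most abundant with little change; and the 15 most abundant per stage; a few genes that met these rules are not reported here. Genes named from the near-absent, little-change and most abundant sets were also of at least 300 bases. Alternatives tried were other pseudocounts, filters and scalings, no trend, all 8 RNA-seq libraries, each library left out, a replicate block, and genes under 300 bases left out.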

Additional observations from a re-analysis of the deposited data

How the results depend on the processing

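Of 287 named genes called, 219 kept the call in all 15 alternatives, 34 kept it in the 12 to 14 that could be run, 29 of these not tested when a blastocyst library was left out, 33 lost it in at least 1 and 10 of the latter only with a blastocyst library left out. Rpph1, the remaining called gene, is in none of these counts and lost its call with quantile normalization only. Of 37 named genes not called, 20 were called in at least 1 alternative. Leaving out 1 library at a time, the number of genes called ranged from 5459 to 8144, the number higher from 3150 to 5216 and the number lower from 2305 to 2928; fewer genes pass the filter without a blastocyst library. With a bound of 0.1 FPKM in place of 0.5, 16 genes were near absent at the 8-cell stage and 2 in blastocysts, and with at least 10 FPKM at the other stage 15 and 6. With an interval of -0.25 to 0.25, 7 genes showed little change. Under quantile normalization Rplp0 and Hsp90ab1 changed sign, to -0.30 and -0.021, and the cause was not tested. Rpph1 stood at 0 there, because that method gives the top gene of each library the same value. List medians that changed sign with another scaling were those of FGF and ERK signalling (-0.07 and -0.31), G1 regulators (-0.04 with median-of-ratios scaling), Hippo (-0.09 with quantile normalization), blastocoel genes (-0.06), endocytosis (-0.02) and initiation factors (-0.18 and -0.01).

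No pairing by replicate number was seen: deviations of same-numbered libraries correlated at -0.03 and -0.02 over 2 pairs. Deviations of 2 blastocyst libraries from their mean mirror each other, so these values cannot show that the samples were unpaired. With the replicate number as a block, 4956 genes were higher and 2905 lower, 7861 in all; Gata6 (adjusted p = 0.0267) and Klf5 (0.0385) were then called by limma, and 3 blastocoel genes were higher. Depth limits the genes near 0 most: at 1 FPKM a 1 kb gene holds about 20 fragments.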

Other observations

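The 2 blastocyst libraries differed from each other by gene group. Over all 12199 genes the median log2 ratio of library 1 to library 2 was -0.05, and 39.9% of genes were above 0. Receptors and basement membrane products of the primitive endoderm had a median of 0.73, with 13 of 16 higher in library 1. Endocytosis and lysosome genes stood at 0.72 (21 of 29), cleavage stage genes at 0.55 (6 of 8) and tight junction genes at 0.48 (7 of 10). Annexins and S100 genes stood at -0.26, with 1 of 11 higher in library 1, and proteasome genes at -0.14, with 1 of 33. With 2 libraries these differences have no test.

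Among the 8-cell libraries, library 2 stood apart in other groups. Its median log2 ratio to the mean of libraries 1 and 3 was 0.03 over all genes, 0.52 over FGF and ERK signalling genes (13 of 17 higher) and 0.43 over immediate early genes (10 of 12). Ribosomal protein genes stood at -0.19 there, with 3 of 80 higher. Zona pellucida and oocyte-secreted genes stood at 0.18, with 9 of 10 higher. The largest rise of any gene tested was of Mir5114, named here after its values were seen, at 8.66, 11.3 and 2.54 FPKM in the 8-cell libraries and 1083 and 780.0 FPKM in the blastocyst libraries (log2 fold change 6.94 ± 0.49 (SE), adjusted p = 5.1e-05, limma). Its annotated length is 61 bases, short for a fragment-based FPKM, so that value is uncertain.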
